A study of Caenorhabditis elegans with 9 samples.

Results

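Worms under either of 2 targeted RNA interference (RNAi) treatments were set as a pair of groups against worms on the empty vector, to ask which transcripts lay on the same side of the empty-vector level under both. All samples were whole Caenorhabditis elegans hermaphrodites, aged 5 days, of N2, the wild-type strain. The first treatment targeted H28O16.1, the sequence name of atp-1, whose product is the catalytic core's alpha subunit in mitochondrial ATP synthase. The second targeted B0395.3, a gene annotated among the carnitine acyltransferases, enzymes that move fatty acyl groups on and off carnitine. The control treatment was L4440, the plasmid backbone commonly used for feeding double-stranded RNA, without a worm gene in it. Each group had 3 libraries, so 6 of the 9 libraries of the study were set against the remaining 3. The sources used here give neither the bacterial strain nor the time on RNAi. The members described are the 1413 genes, of 14622 tested, that passed an adjusted p of 0.05 in the same direction in H28O16.1 against L4440 and in B0395.3 against L4440. A further 32126 listed genes had too few counts to be tested and are not described.

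In feeding RNAi, worms eat bacteria that make double-stranded RNA, the worm cuts it into small RNAs, and these direct the loss of matching mRNAs. The empty vector serves as the control because the bacteria carry the plasmid but make no RNA against a worm gene. Both groups were measured against the same 3 L4440 libraries, so any deviation of those libraries enters both comparisons with the same sign, and a shift shared by both RNAi groups cannot be told apart from a shift of the L4440 worms themselves. Values are CPM, which are counts scaled to a common library size with the TMM factors of edgeR, and they compare libraries, not genes, since they are not divided by gene length. Adjusted p-values come from edgeR's quasi-likelihood test with Benjamini-Hochberg adjustment over all 14622 genes. Averages of both RNAi groups give each group the same weight on the log2 scale.

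The libraries held 31236614 to 40990685 counts and correlated within groups at r of 0.994 to 0.997 across genes. The first principal component held 71.7% of the variance and set H28O16.1 apart, and on the second, with 13.3%, L4440 lay at one end, at -28.6 to -24.1, B0395.3 at the other, at 20.4 to 24.8, and H28O16.1 between them, at 0.973 to 6.71. Replicate 3 of H28O16.1 was the library least like the rest of its group. The share of counts from ribosomal RNA genes was 0.290%, 0.107% and 0.317% in H28O16.1, 0.223%, 0.206% and 0.294% in B0395.3, and 0.0869%, 0.102% and 0.0883% in L4440. All 6 RNAi libraries thus lay above the 3 L4440 libraries in this measure of leftover rRNA, and most gene groups below are also given with that share as a covariate, an alternative that was added once the data were known. Since the share tracks the groups, the covariate also takes up part of the comparison with L4440. Fewer calls with it therefore cannot tell lost power from an effect of leftover rRNA, which was not tested. Whether a group's libraries came from separate cultures is not stated in the labels, so the spread behind the p-values may be technical. In whole worms, fewer cells of a type and less RNA per cell cannot be told apart. Markers of intestine, hypodermis, body wall muscle, pharynx, neurons, germ line, oocytes, sperm, early embryo and coelomocytes all had tested members.

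Compared with L4440, the average of both RNAi groups was higher for 2646 genes (18.1% of those tested) and lower for 3980 (27.2%). Fewer genes were called in the same direction in both comparisons. Of the genes tested, 557 (3.81%) were higher in both and 856 (5.85%) were lower in both, while 1207 (8.25%) went opposite ways. The separate comparisons called 8417 genes in H28O16.1 (57.6%) and 3976 in B0395.3 (27.2%), and 9158 genes (62.6%) differed between the RNAi groups. Judged by the libraries alone, 1211 genes (8.28%) had all 6 RNAi libraries above the 3 L4440 libraries and 1393 (9.53%) had all 6 below. The average alone does not show a shared shift. It called 53 of the genes that were higher in H28O16.1 and lower in B0395.3 as higher and 92 as lower, and of the genes that were lower in H28O16.1 and higher in B0395.3 it called 12 higher and 425 lower.

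Most shared shifts were small. The median log2 fold change of the genes higher in both was 0.45 in H28O16.1 and 0.32 in B0395.3, and that of the genes lower in both was -0.41 in H28O16.1 and -0.29 in B0395.3, while over all genes tested the median of the average was -0.019. Over 2-fold in both groups there were 25 higher and 99 lower genes. The genes lower in both held 11.9% ± 0.121 of the counts in H28O16.1 and 13.2% ± 0.0262 in B0395.3, against 14.9% ± 0.0842 in L4440 (SD, n = 3 each). The genes higher in both held 3.84% ± 0.118 in H28O16.1 and 3.35% ± 0.0595 in B0395.3, against 2.60% ± 0.0217 in L4440. The rule chose these genes by their direction, so the shares describe them and test nothing. The direction of the split depends on scaling, since 39.4% of the shared calls were higher with TMM, 45.9% with DESeq2 size factors and 72.1% with library totals alone, where 1290 genes were higher in both and 500 lower. With the rRNA share as a covariate 142 genes were higher in both and 329 lower, and 316 of the lower genes were also lower in both without it. Without B0395.3 replicate 3 there were 364 higher in both and 616 lower, and without L4440 replicate 2 there were 370 and 609.

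**Figure D1:**
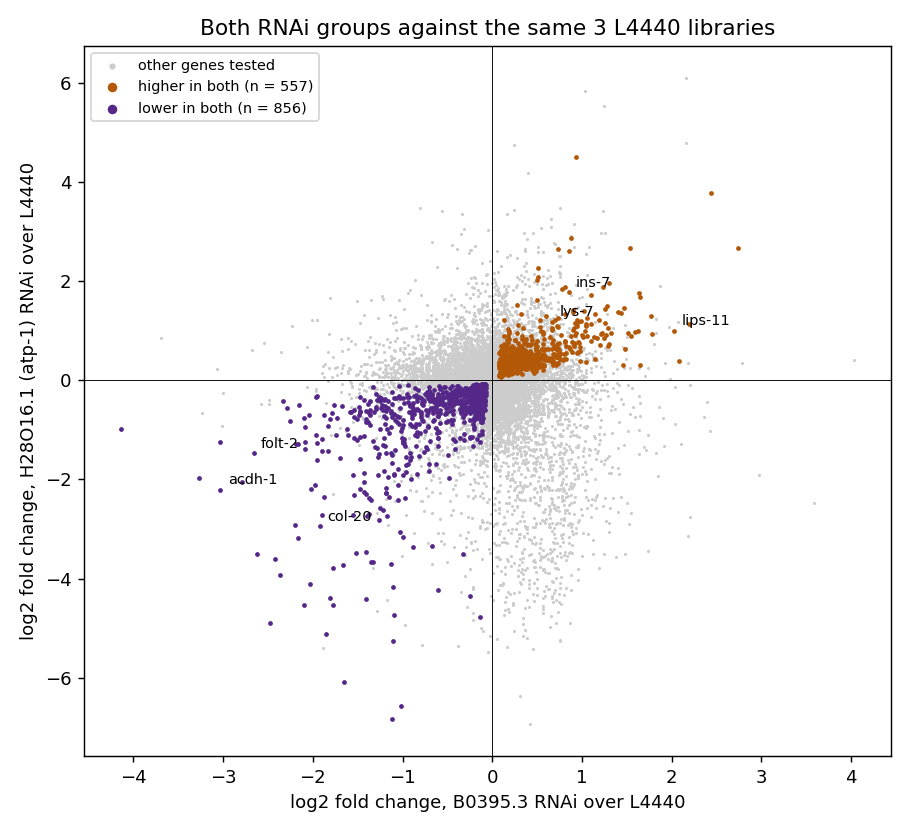
Log2 fold change of each of the 14622 genes tested in H28O16.1 over L4440 (vertical axis) and in B0395.3 over L4440 (horizontal axis), each from 3 libraries a group. Orange points are the 557 genes higher in both and purple points the 856 lower in both, and both axes share the L4440 libraries, so part of any slope comes from them.

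All 5 enzymes of the propionate shunt were lower in both RNAi groups, the highest share of any list, against 5.85% of all genes tested. Propionate, which arises when odd-chain fatty acids and branched amino acids are broken down, is usually consumed by a route that needs vitamin B12. The shunt is the route without it, and its first enzyme gene, acdh-1, is known in this worm as a gene whose expression is high on diets poor in vitamin B12. The acyl-CoA dehydrogenase gene acdh-1 (WBGene00016943, chromosome I from 6497436 to 6499560, plus strand, WBcel235) had 102, 86.9 and 74.7 CPM in H28O16.1 and 59.8, 38.6 and 49.9 CPM in B0395.3, against 435, 425 and 354 CPM in L4440. The highest RNAi library, at 102 CPM, lay far below the lowest L4440 library, at 354 CPM. That the groups did not overlap was required by the choice of acdh-1 as a leading gene. The average was 0.163 times the L4440 level (log2 fold change -2.62, SE 0.11, adjusted p = 2.28e-09), with -2.21 in H28O16.1 and -3.03 in B0395.3. The change was larger in B0395.3, by 0.82 log2 units (95% interval 0.55 to 1.09, adjusted p = 0.000183).

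The fourth enzyme of the shunt, the 3-hydroxypropionate dehydrogenase hphd-1 (WBGene00012608, chromosome II from 12994354 to 12996571, minus strand), had 54, 53.8 and 48.3 CPM in H28O16.1 and 42.2, 39.4 and 41 CPM in B0395.3, against 169, 173 and 133 CPM in L4440. The L4440 libraries were the highest, which its choice as a leading gene also required, with replicate 3 the lowest of them, as for acdh-1. The average stood at 0.291 times L4440 (log2 fold change -1.78, SE 0.07, adjusted p = 1.17e-09). The remaining members shifted less. The enoyl-CoA hydratase gene ech-6 had 185, 174 and 159 CPM in H28O16.1 and 148, 148 and 146 CPM in B0395.3, against 236, 244 and 214 CPM in L4440, an average log2 fold change of -0.54. The hydrolase gene hach-1 stood at -0.53 and the semialdehyde dehydrogenase gene alh-8 at -0.36, with all 6 RNAi libraries below L4440 in both genes. The 5 genes together took 0.0796% ± 0.00261 of the counts in H28O16.1 and 0.0738% ± 0.000566 in B0395.3, against 0.139% ± 0.00989 in L4440 (SD, n = 3 each). All 5 were lower in both under each scaling tried, in DESeq2 and with the rRNA share as a covariate, where the median log2 fold change was -0.53, against -0.54 without it.

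The vitamin B12-dependent route did not move as a block. Of its 6 measured genes, 1 was lower in both, pccb-1, the beta subunit of propionyl-CoA carboxylase, at 283, 289 and 303 CPM in H28O16.1 and 316, 343 and 326 CPM in B0395.3, against 368, 382 and 374 CPM in L4440 (log2 fold change of the average -0.27, adjusted p = 1.01e-05). With the rRNA share as a covariate 0 of the 6 were lower in both. The methylmalonyl-CoA mutase gene mmcm-1, which uses vitamin B12 as cofactor, was higher in H28O16.1 (0.10, adjusted p = 0.0255) and lower in B0395.3 (-0.12, adjusted p = 0.0173). Among 17 genes of the methionine cycle, transsulfuration and folate, 5 were lower in both (29.4%, against 5.85% of all genes tested) and 0 higher. The count of 5 was the same with the rRNA share as a covariate. Folate carrier family gene folt-2 had 33.6, 31.2 and 23.8 CPM in H28O16.1 and 15.7, 9.22 and 13.2 CPM in B0395.3, against 93.8, 87.6 and 62.9 CPM in L4440 (log2 fold change -2.07, adjusted p = 1.83e-07). The S-adenosylmethionine synthetase gene sams-1 had 26.4, 24.7 and 32.2 CPM in H28O16.1 and 23.9, 22.3 and 23 CPM in B0395.3, against 64.6, 58.3 and 41.9 CPM in L4440 (-1.12, adjusted p = 3.93e-06). Neither gene's groups overlapped, which the choice of folt-2 as a leading gene required, and L4440 replicate 3 was again the lowest control. The phosphoethanolamine methyltransferase gene pmt-2, which uses S-adenosylmethionine to make phosphatidylcholine precursors, stood at -0.72, the adenosylhomocysteine hydrolase gene ahcy-1 at -0.29 and the serine hydroxymethyltransferase gene mel-32 at -0.19. Other members separated the RNAi groups. The cystathionine beta-synthase gene cbs-1 averaged -1.72 in H28O16.1 and 0.02 in B0395.3 (adjusted p = 0.891), and the methionine synthase gene metr-1, the other enzyme that uses vitamin B12, averaged 0.18 in H28O16.1 and 0.01 in B0395.3 (adjusted p = 0.778).

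Nuclear hormone receptors, a large family of ligand-regulated transcription factors in this worm, had 5 of 182 members higher in both (2.75%, against 3.81% of all genes tested) and 2 lower (1.1%, against 5.85%), and 4 and 2 with the covariate. The 2 lower members were nhr-68 and nhr-114, which are known as regulators of genes that respond to propionate and to low vitamin B12. The nhr-68 gene had 21.8, 21.1 and 18.7 CPM in H28O16.1 and 16.8, 16 and 18.3 CPM in B0395.3, against 32.2, 30.4 and 28.9 CPM in L4440 (log2 fold change of the average -0.71, SE 0.06, adjusted p = 1.14e-06). The nhr-114 gene averaged 9.64 CPM in H28O16.1 and 7.91 CPM in B0395.3, against 16.3 CPM in L4440, where its lowest library had 13.4 CPM (-0.90, SE 0.09, adjusted p = 5.82e-06). For both, the RNAi libraries all lay below L4440. The nhr-10 gene was chosen here for its known role with nhr-68 and after its values had been seen. It had 27.9, 28.7 and 28.4 CPM in H28O16.1 and 30.4, 28.4 and 29.9 CPM in B0395.3, against 29.7, 28.2 and 28.2 CPM in L4440, and passed neither test (0.01 in the average, adjusted p = 0.865). The receptors higher in both were nhr-6, nhr-19, nhr-63, nhr-99 and nhr-150, of which nhr-6 moved furthest, with 11, 11.9 and 12.4 CPM in H28O16.1 and 3.78, 4.25 and 3.83 CPM in B0395.3, against 2.83, 2.54 and 2.93 CPM in L4440.

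Lipid genes with a shared shift were mostly lower, while over all genes tested 5.85% were lower in both and 3.81% higher. Of 45 acyl-CoA synthetases, dehydrogenases and hydratases, which activate and oxidise fatty acids, 13 were lower in both and 1 higher, and 8 and 0 with the rRNA share as a covariate. Besides acdh-1 and ech-6 the list was led by ech-7 at -1.23, the 3-hydroxyacyl-CoA dehydrogenase gene hacd-1 at -1.0 and the acyl-CoA synthetase gene acs-20 at -0.70. Of 21 genes of fatty acid synthesis and desaturation, 8 were lower in both and 0 higher (5 and 0 with the covariate). They included the fatty acid elongases elo-5 and elo-6, known for making monomethyl branched-chain fatty acids, and the stearoyl desaturases fat-6 and fat-7, which make oleate. The elo-6 gene had 149, 146 and 124 CPM in H28O16.1 and 124, 115 and 128 CPM in B0395.3, against 252, 252 and 229 CPM in L4440 (log2 fold change of the average -0.90, adjusted p = 4.43e-08). The lysosomal lipase gene lipl-5 had 214, 199.6 and 195 CPM in H28O16.1 and 219, 235 and 251 CPM in B0395.3, against 435, 498 and 472 CPM in L4440 (-1.1, adjusted p = 2.86e-09). The average stood at 0.466 times the control in that gene, and the groups did not overlap. The pmp-5 gene, of the peroxisomal ABC transporter family, had 9.20, 8.38 and 8.98 CPM in H28O16.1 and 8.71, 7.39 and 8.12 CPM in B0395.3, against 28.9, 27 and 23.1 CPM in L4440. Its shift was -1.57 in H28O16.1 and -1.70 in B0395.3, and the 95% interval of their difference ran from -0.06 to 0.32 (adjusted p = 0.254).

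Among carnitine acyltransferases the second RNAi target, B0395.3 itself, was lower in both, at 25.6 ± 2.51 CPM in H28O16.1 and 13.9 ± 2.23 CPM in B0395.3, against 33.6 ± 1.76 CPM in L4440 (SD, n = 3 each). A family member moved the other way. The carnitine palmitoyltransferase gene cpt-4 had 3.68, 5.96 and 5.21 CPM in H28O16.1 and 7.87, 8.31 and 6.67 CPM in B0395.3, against 2.64, 2.81 and 2.00 CPM in L4440 (log2 fold change of the average 1.3, SE 0.16, adjusted p = 2.29e-05). All 6 RNAi libraries lay above the controls, as the choice of this leading gene required. The lipase-family gene lips-11 was also higher, with 25.1, 23.9 and 23.5 CPM in H28O16.1 and 48.9, 49.4 and 49.1 CPM in B0395.3, against 11.1, 14.2 and 10.9 CPM in L4440, and the B0395.3 libraries stood highest (difference -1.02, adjusted p = 7.7e-08). The other target, atp-1, was also called lower in both, but at 69.8, 66.9 and 75.4 CPM in H28O16.1 and 1766, 1810 and 1710 CPM in B0395.3, against 1966, 2003 and 1864 CPM in L4440, its shared part was small (-0.14 in B0395.3, adjusted p = 0.0245). With library totals alone, or with the rRNA share as a covariate, atp-1 was not called lower in both.

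In 3 lists of central carbon metabolism the shared shifts were all decreases, most of them modest. In the order below, 50%, 50% and 34.8% of their members were lower in both, against 5.85% of all genes tested. In the quartile of genes with the highest mean CPM the share was 11.6%. Of 18 glycolysis genes 9 were lower in both and 0 higher (7 and 0 with the covariate). The pyruvate kinase gene pyk-1 had 432, 420.3 and 428 CPM in H28O16.1 and 467, 487 and 473 CPM in B0395.3, against 566, 595 and 569.6 CPM in L4440 (log2 fold change of the average -0.36, adjusted p = 2.05e-07). Enolase, enol-1, stood at -0.24 in H28O16.1 and -0.25 in B0395.3, and glyceraldehyde-3-phosphate dehydrogenase, gpd-1, at -0.65 and -0.19. Among 8 genes that act in gluconeogenesis, trehalose synthesis or the glyoxylate cycle, 4 were lower in both and 0 higher (3 and 0 with the covariate). The phosphoenolpyruvate carboxykinase gene pck-2 had 487, 500.4 and 574 CPM in H28O16.1 and 569, 613 and 576 CPM in B0395.3, against 896, 982 and 894 CPM in L4440 (-0.74, SE 0.05, adjusted p = 1.04e-07). Fructose bisphosphatase, fbp-1, shifted by -0.39 in each group, and the isocitrate lyase gene icl-1 of the glyoxylate cycle by -0.36 in H28O16.1 and -1.03 in B0395.3. Among 23 pyruvate dehydrogenase and tricarboxylic acid cycle genes, 8 were lower in both and 0 higher (4 and 0 with the covariate), led by the isocitrate dehydrogenase subunit idhb-1 at -0.39. The medians of the 3 lists were -0.24, -0.33 and -0.10, and those of glycolysis and the tricarboxylic acid cycle moved to -0.18 and -0.04 with library totals alone.

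Yolk genes shared only part of their shift. Vitellogenins are made in the intestine and carry lipid into oocytes, and 3 of 6 were lower in both (50%, against 5.85% of all genes tested). The count was the same under the covariate. The vit-3 gene had 532, 545 and 603 CPM in H28O16.1 and 345, 334 and 333 CPM in B0395.3, against 950.2, 979 and 947 CPM in L4440 (log2 fold change of the average -1.14, SE 0.03, adjusted p = 1.87e-10). The vit-4 gene stood at -1.11 and vit-1 at -0.80. Close copies exist of vit-3 and vit-4, so the split of reads among them is uncertain. By contrast 2 of the 6 went opposite ways, among them vit-6, higher in H28O16.1 (0.12, adjusted p = 0.039) and lower in B0395.3 (-0.52). The vit-5 gene was called in B0395.3 alone. Together the 6 held 4.86% ± 0.288 of the counts in H28O16.1 and 3% ± 0.0706 in B0395.3, against 4.41% ± 0.0881 in L4440 (SD, n = 3 each). The yolk total was thus not lower in H28O16.1. Of 7 intestine markers 1 was lower in both, the gut esterase gene ges-1, and the 7 held 0.0366% to 0.0397% of the counts in H28O16.1 and 0.0276% to 0.0289% in B0395.3, against 0.0334% to 0.0369% in L4440.

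Genes that modify foreign and endogenous small molecules were lower more often than higher, as were all genes tested (5.85% lower in both, 3.81% higher). Of 63 cytochromes P450, 12 were lower in both (19%) and 1 higher (1.59%), and of 60 UDP-glucuronosyltransferases 8 (13.3%) and 2 (3.33%). Of 39 glutathione S-transferases the counts were 6 (15.4%) and 0, and of 30 short-chain dehydrogenases 8 (26.7%) and 0. With the rRNA share as a covariate the lower counts were 8, 5, 4 and 4. The cyp-35A2 gene, of a P450 subfamily known to respond to xenobiotics, had 11.6, 13.2 and 13.4 CPM in H28O16.1 and 20.1, 21.3 and 20.4 CPM in B0395.3, against 33.8, 39.5 and 35.9 CPM in L4440 (log2 fold change of the average -1.17, adjusted p = 9.9e-09). Its relative cyp-35C1 shifted evenly, by -1.31 in H28O16.1 and -1.22 in B0395.3, as did the glutathione S-transferase gene gst-5, by -0.66 in each. The oxidative stress reporter gene gst-4 shifted unevenly, by -0.82 in H28O16.1 and -2.26 in B0395.3 (difference 1.44, adjusted p = 7.23e-06). Among 30 superoxide dismutases, catalases, peroxiredoxins and glutathione synthesis genes 7 were lower in both and 1 higher, with the cytosolic superoxide dismutase gene sod-1 at -0.41, and 1 and 0 with the covariate.

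**Figure D2:**
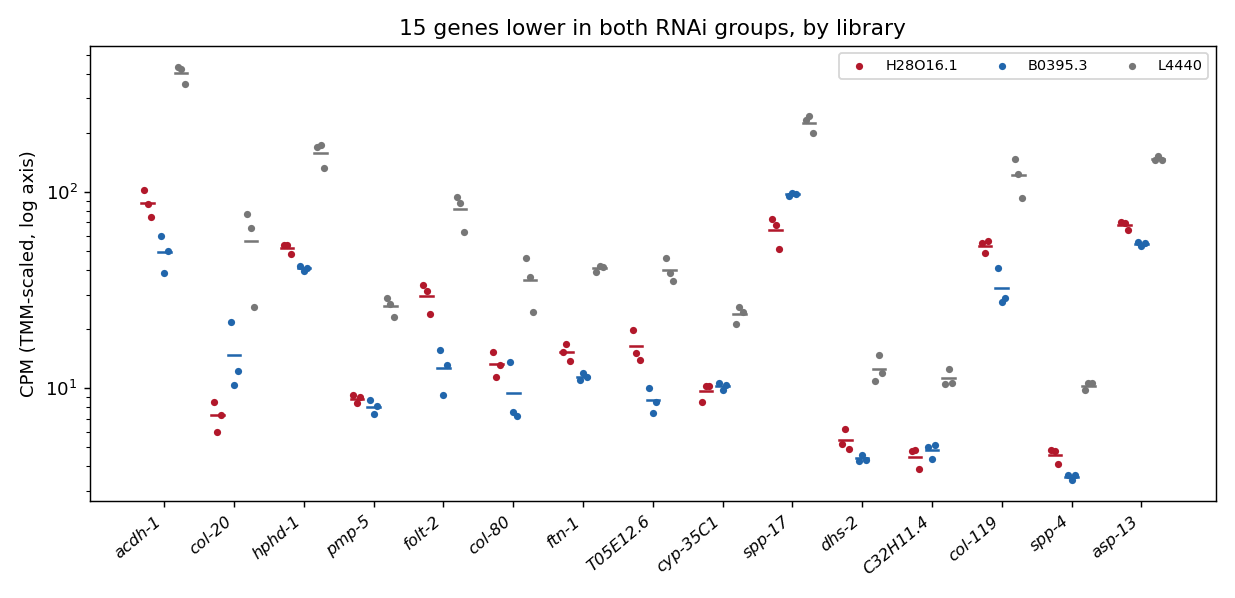
CPM (log axis) of the 15 genes with the strongest shared decrease, by library, with H28O16.1 at the left of each gene, B0395.3 in the middle and L4440 at the right. Points are the 3 libraries of a group and short bars their means. All 6 RNAi libraries of each gene lie below the 3 L4440 libraries, which was a condition for the choice, and the L4440 libraries of the collagen gene col-20 spread from 26.1 to 76.9 CPM.

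Iron and insulin pathway genes moved in both directions. The ferritin heavy chain gene ftn-1, an iron store and a known target of the insulin-regulated transcription factor DAF-16, had 15.3, 16.9 and 13.7 CPM in H28O16.1 and 11, 12 and 11.4 CPM in B0395.3, against 39.0, 42.2 and 41.6 CPM in L4440. That is an average of 0.323 times L4440 (log2 fold change -1.63, SE 0.06, adjusted p = 7.81e-10), with no overlap, which its choice as a leading gene required. The superoxide dismutase gene sod-3, another DAF-16 target, was lower in both at -0.68, as was the desiccation protein gene lea-1 at -1.26, which had 325, 307 and 344 CPM in H28O16.1 and 699.7, 732 and 708 CPM in B0395.3, against 1116, 1170 and 1183 CPM in L4440. In contrast the metallothionein gene mtl-2 was higher at 0.38, the lysozyme gene lys-7 at 0.93 and the insulin-like peptide gene ins-7 at 1.32. Altogether 7 of 22 insulin signalling and DAF-16 target genes were lower in both (31.8%) and 3 higher (13.6%), against 4 and 2 with the covariate. Over all genes tested the shares were 5.85% lower and 3.81% higher. The ins-7 gene, whose peptide is known to act as an agonist of the insulin receptor, had 25.6, 27.6 and 22.4 CPM in H28O16.1 and 14.4, 13.3 and 11.8 CPM in B0395.3, against 6.99, 7.94 and 7.00 CPM in L4440. The H28O16.1 libraries were the highest (difference 0.93, adjusted p = 1.19e-06). In the list of ferritins, metallothioneins and metal transporters 5 of 30 were lower in both (16.7%), including cdr-2, cdr-4 and cdr-6. The 1 higher (3.33%) was near the general share, and with the covariate 3 were lower and 0 higher.

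Immune effectors were split by gene. The lys-7 lysozyme (WBGene00003096, chromosome V from 3481432 to 3482600, minus strand) was the most abundant of the leading higher genes, with 3050, 3130 and 3388 CPM in H28O16.1 and 2301, 2185 and 2227 CPM in B0395.3, against 1312, 1404 and 1494 CPM in L4440 (log2 fold change of the average 0.93, SE 0.05, adjusted p = 8.78e-09). A second lysozyme gene, ilys-5, was lower, with 383, 358 and 360.2 CPM in H28O16.1 and 623, 650.4 and 655 CPM in B0395.3, against 785, 896 and 899 CPM in L4440 (-0.82, adjusted p = 1.03e-08). Of 117 C-type lectins, sugar-binding proteins many of which respond to pathogens, 12 were lower in both (10.3%, against 5.85% of all genes tested). The 4 higher in both (3.42%, against 3.81%) were near the general share, and with the covariate 3 were lower and 1 higher. The clec-65 gene stood at -0.92 in H28O16.1 and -0.89 in B0395.3, and clec-5 at 1.22 and 1.19. For clec-5 the libraries had 10.7, 11 and 11.4 CPM in H28O16.1 and 11.5, 9.85 and 11.1 CPM in B0395.3, against 4.68, 4.6 and 4.91 CPM in L4440, and the 95% interval of the difference between the RNAi groups was -0.12 to 0.18. Saposin-like proteins, some of which form pores in bacterial membranes, counted 5 lower (22.7%) and 2 higher (9.09%) of 22, and 4 and 0 with the covariate. The spp-17 gene had 72.8, 67.9 and 51.4 CPM in H28O16.1 and 95.5, 98.8 and 97.3 CPM in B0395.3, against 233, 243 and 199.7 CPM in L4440 (-1.51). In the list of infection response genes 5 of 33 were lower in both (15.2%) and 2 higher (6.06%), and 1 and 0 with the covariate. Among them irg-4 was lower at -1.3 and irg-1 higher at 0.59.

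Lysosomal proteases showed both shared decreases and opposite shifts. Of 22 aspartic and cysteine cathepsins 6 were lower in both (27.3%, against 5.85% of all genes tested). The 1 higher, cpr-3 (4.55%, against 3.81%), was near the general share. A further 9 went opposite ways, and 4 were lower and 0 higher with the covariate. The aspartic protease gene asp-13 had 70.3, 69.6 and 64.0 CPM in H28O16.1 and 55.8, 52.9 and 55.1 CPM in B0395.3, against 145, 153 and 145 CPM in L4440 (log2 fold change of the average -1.28, SE 0.03, adjusted p = 3.93e-11). Its groups lay far apart relative to their spread. Its relative asp-3 stood at -0.67 and asp-4 at -0.54. The proteasome, which degrades ubiquitin-tagged proteins, had 17 of 33 subunits lower in both (51.5%, against 5.85% of all genes tested) and 0 higher. The changes were small: rpn-1, a base subunit of the regulatory particle, had 576, 545 and 578 CPM in H28O16.1 and 616, 648 and 624 CPM in B0395.3, against 716, 729 and 710.3 CPM in L4440 (-0.27). The count of 17 was sensitive to processing, at 10 with DESeq2 size factors, 3 with library totals alone and 2 with the rRNA share as a covariate. The list held 0.923% to 0.965% of the counts in H28O16.1 and 1.02% to 1.03% in B0395.3, against 1.05% in each L4440 library.

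Cuticle collagens, the structural proteins secreted by the hypodermis, were lower in both for 28 of 103 members of the col family and higher for 0. The lower share was 27.2%, against 5.85% of all genes tested, and 7 members went opposite ways. Under the covariate 7 of the 103 were lower in both. The whole family held 0.231% to 0.265% of the counts in H28O16.1 and 0.0881% to 0.104% in B0395.3, against 0.212% to 0.286% in L4440. The family total of H28O16.1 thus overlapped that of L4440, and only that of B0395.3 was lower. The median of the average was -0.93, but members such as col-13 and col-110 had means under 1 CPM in every group, and the controls were uneven. The col-119 gene had 54.8, 48.7 and 56.0 CPM in H28O16.1 and 40.8, 27.5 and 29 CPM in B0395.3, against 147, 124 and 93.4 CPM in L4440 (log2 fold change -1.55, adjusted p = 8.15e-07). The col-20 gene had 8.54, 6.02 and 7.31 CPM in H28O16.1 and 21.7, 10.4 and 12.2 CPM in B0395.3, against 76.9, 65.7 and 26.1 CPM in L4440, so its highest RNAi library came close to its lowest control (-2.43, SE 0.28). Collagen genes are close copies, so reads could be split between members. Of 6 hypodermis markers 2 were lower in both, the adult collagens col-19 and col-140, which are also in the collagen list. The marker share of counts was 0.0113% to 0.0124% in H28O16.1 and 0.00559% to 0.00775% in B0395.3, against 0.0147% to 0.0226% in L4440. The larval collagen rol-6 lay at 0.025, 0.395 and 0.293 CPM in H28O16.1, B0395.3 and L4440, and the hypodermal transcription factor gene elt-3 at 10.1, 7.33 and 8.81 CPM. The part of hypodermal RNA in the collagen counts was not tested.

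Germ line products gave a mixed picture. Of 36 oocyte and eggshell genes 10 were lower in both (27.8%, against 5.85% of all genes tested) and 0 higher. The oocyte maturation regulator oma-2 had 590.1, 589 and 591 CPM in H28O16.1 and 892, 909 and 870.2 CPM in B0395.3, against 990, 1034 and 989.5 CPM in L4440 (log2 fold change of the average -0.47, adjusted p = 1.85e-08). Next came the eggshell chondroitin proteoglycan cpg-2 at -0.32 and the RNA-binding regulator mex-3 at -0.30. With the rRNA share as a covariate 0 of 36 were lower in both. Oocyte markers held 0.375% to 0.380% of the counts in H28O16.1 and 0.393% to 0.403% in B0395.3, against 0.408% to 0.414% in L4440, and 3 of the 4 were lower in both, while 0 of 8 germ line markers were. Of 42 sperm genes tested 12 were lower in both (28.6%, against 5.85% of all genes tested) and 0 higher. All 12 had means under 1 CPM in every group. The whole list held 0.027% to 0.0275% of the counts in H28O16.1 and 0.0232% to 0.0239% in B0395.3, against 0.0234% to 0.0238% in L4440. The list total was thus higher in H28O16.1 and level with L4440 in B0395.3. The major sperm protein gene msp-45 had 0.104, 0.126 and 0.0489 CPM in H28O16.1 and 0.120, 0.0857 and 0.170 CPM in B0395.3, against 0.358, 0.588 and 0.480 CPM in L4440 (-2.12, SE 0.31). At that level each value rests on few reads and members of the family share them. The sperm count was 1 in DESeq2 and 1 with the covariate.

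**Figure D3:**
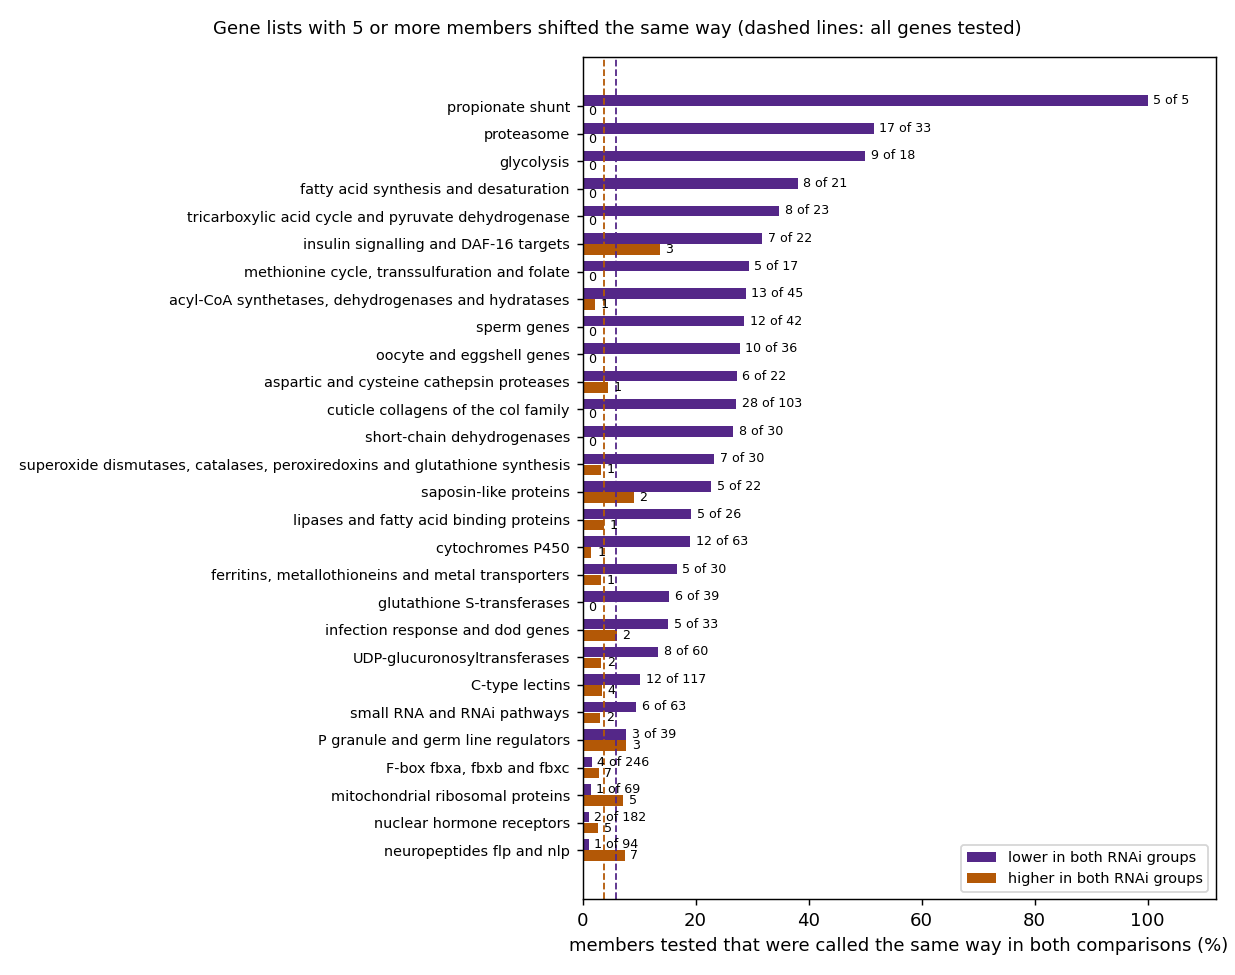
Share of the tested members of a gene list that were lower (purple) or higher (orange) in both RNAi groups against L4440, for each list with 5 or more such members, with counts beside the bars. Dashed lines give the shares over all genes tested, 5.85% lower and 3.81% higher. The propionate shunt, proteasome and glycolysis lists lie furthest above the lower line, and the count of the proteasome list depends on scaling.

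Against 3.81% of all genes tested that were higher in both, neuropeptides and mitochondrial ribosomal proteins had 7.45% and 7.25%. Of 94 neuropeptide genes, whose short peptides signal between neurons, 7 were higher in both and 1, nlp-24, lower. The flp-1 gene, which encodes FMRFamide-like peptides, had 9.30, 8.19 and 8.93 CPM in H28O16.1 and 8.06, 8.99 and 9.36 CPM in B0395.3, against 6.47, 7.33 and 7.08 CPM in L4440 (log2 fold change of the average 0.34, adjusted p = 0.00295). The larger rise of nlp-39 was mostly one of H28O16.1 (1.33, against 0.32 in B0395.3). With library totals alone 15 were higher in both, and with the rRNA share as a covariate 0. Neuron markers held 0.0282% to 0.0319% of the counts in H28O16.1 and 0.0308% to 0.0328% in B0395.3, against 0.0286% to 0.0294% in L4440, and 0 of 10 moved the same way. Of 69 mitochondrial ribosomal protein genes 5 were higher in both and 1 lower, among them mrpl-17 at 0.33, with 19 and 0 under library totals alone and 1 and 0 with the covariate. Of 11 mitochondrially encoded proteins 0 were called the same way, although the average called 10 lower: 10 were lower in H28O16.1 and 0 in B0395.3. That 0 depended on the libraries used, since without H28O16.1 replicate 3 there were 5 lower in both.

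**Figure D4:**
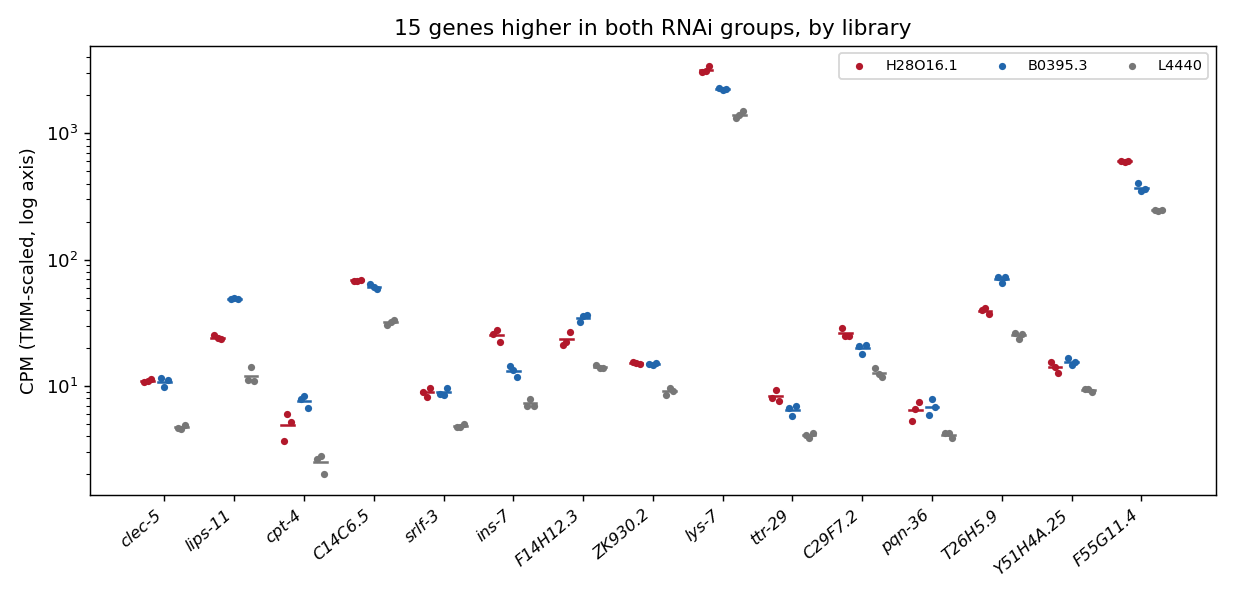
CPM (log axis) of the 15 genes with the strongest shared increase, by library, laid out with H28O16.1 at the left, B0395.3 in the middle and L4440 at the right. Points are single libraries and short bars group means. All 6 RNAi libraries lie above the 3 L4440 libraries in each gene by the rule of choice, and lys-7 stands highest, at 1312 CPM or more in every library.

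The remaining genes of the strongest increases have little known function. The C14C6.5 gene had 68.3, 67.5 and 69.3 CPM in H28O16.1 and 63.9, 61.1 and 58.5 CPM in B0395.3, against 30.5, 31.9 and 33.1 CPM in L4440 (log2 fold change of the average 1.02, SE 0.04, adjusted p = 1.38e-09). The F55G11.4 gene, of a family with CUB-like domains, had 608, 592 and 603 CPM in H28O16.1 and 400.5, 352 and 359 CPM in B0395.3, against 248, 240.5 and 246 CPM in L4440 (0.95). In both genes the controls were the lowest of the 9 libraries, as the rule of choice required. The srlf-3 gene (0.89), ZK930.2 (0.73), ttr-29, of the transthyretin-like family (0.85), C29F7.2 (0.85), pqn-36 (0.69), T26H5.9 (1.06) and F14H12.3 (1.01) made up the list with Y51H4A.25 (0.67), of whose exon bases 12.1% are covered by Y51H4A.24 on the other strand. Since the kit does not mark strand, reads of the 2 cannot be told apart there. Decreases of the same rank included T05E12.6 (-1.74), the collagen gene col-80 (-1.66), the dehydrogenase gene dhs-2 (-1.36, 6.6% of its exon bases covered by anr-38), the saposin-like gene spp-4 (-1.35) and C32H11.4 (-1.26).

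The RNAi machinery processes double-stranded RNA and the worm's own small RNAs. Of 63 genes of small RNA pathways 6 were lower in both (9.52%, against 5.85% of all genes tested) and 2 higher (3.17%, against 3.81%). The Argonaute gene ergo-1, which acts in an endogenous small RNA pathway, had 361, 369 and 388 CPM in H28O16.1 and 436, 469 and 458 CPM in B0395.3, against 503, 522 and 511 CPM in L4440 (log2 fold change of the average -0.31, adjusted p = 2.74e-06). The Argonaute gene ppw-1, needed for RNAi in the germ line, stood at -0.25, whereas the related gene ppw-2 was higher, with 127 ± 4.82 CPM in H28O16.1 and 118 ± 2.59 CPM in B0395.3, against 97.5 ± 3.43 CPM in L4440 (0.33; SD, n = 3 each). The RNA-dependent RNA polymerase gene rrf-2 was higher at 0.48. The direction of the list depends on scaling: with library totals alone 7 were higher in both and 2 lower, and with the rRNA share as a covariate 1 and 1.

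Shared direction did not mean shared size. Of the genes higher in both, 282 of 557 (50.6%) differed between the RNAi groups themselves, 229 of them further from L4440 in H28O16.1 and 53 in B0395.3. Of the genes lower in both, 539 of 856 (63.0%) differed, 359 further in H28O16.1 and 180 in B0395.3. Over all genes tested 62.6% differed between the RNAi groups, so the 58.1% of shared genes that did is close to the background. That comparison uses no L4440 library. Of the shared genes, 532 of the higher and 819 of the lower had all 6 RNAi libraries outside the range of the controls, against 8.28% above and 9.53% below over all genes tested, which the choice of the shared genes largely fixes.

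The shared genes were spread over the genome and over expression levels, with some unevenness. Lower genes made up 4.91% to 6.33% of the tested genes of each nuclear chromosome, and higher genes 3.74% to 4.61% of those of each autosome and 2.16% of those of the X chromosome. In the quartile of genes with the highest mean CPM 11.6% were lower in both, against 3.09% in the lowest quartile. Of 492 pseudogenes 18 were higher in both and 4 lower, of 66 ncRNA genes 5 and 0, and of 4 rRNA genes 2 and 0. Over all genes tested 3.81% were higher in both and 5.85% lower, so the higher pseudogenes were near the general share. At the edge of the threshold, R01H10.4 was just inside, with an adjusted p = 0.0499 in H28O16.1 and 0.0227 in B0395.3, and rars-1, the arginyl-tRNA synthetase gene, was just outside, with an adjusted p = 0.0501 in B0395.3.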

How the data were processed

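Polyadenylated RNA of 9 libraries was sequenced from a TruSeq v2 kit, per the labels' protocols. The kit does not mark strand, so overlapping genes on opposite strands cannot be told apart. The counts per gene were made by the authors and deposited without normalization. Per the submitters' processing notes, the build was WBcel235 and the tools were featureCounts (1.4.6-p4), STAR (2.4.1d) and bcl2fastq (1.8.4). Whether reads matching several close gene copies entered the counts is not given. A deposited table of RPKM was not used. Names and coordinates came from the Ensembl 115 annotation of WBcel235, which held 46449 of the 46748 identifiers, and the other 299 took 0.155% to 0.179% of the counts of a library.

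Genes were kept with filterByExpr at a minimum count of 10, which left 14622 genes, and the genes removed held no more than 0.0463% of any library. They were scaled by TMM and tested with edgeR 4.0.16 in R 4.3.3 by a quasi-likelihood fit over all 9 libraries (biological coefficient of variation 4.64%), with two-sided tests of the average of both RNAi groups, each RNAi group and their difference. The script was tested on simulated data. DESeq2 1.42.0 served as an alternative. CPM are given per library, and ± is SD. Replicates were numbered by the order of their records, pair nothing, and all pairs of libraries of a group differed by more than sampling noise (chi-square per degree of freedom 2.59 to 17.2).

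Genes named by rule are both targets, the 15 strongest shared increases and decreases (called in both comparisons and in the average, mean of at least 5 CPM, no overlap, ranked by the smaller of the 2 absolute log2 fold changes), up to 4 members of each of 55 gene lists and 10 marker lists with the smallest p of the average, and 4 opposite genes of each orientation. Other members of the lists are named where they were called the same way, after their values had been seen. The members, lists and tests were chosen with earlier results of these data known.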

Additional observations from a re-analysis of the deposited data

Results flagged for a closer look

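The 8 genes below were chosen because the 2 comparisons called them in opposite directions, a difference that the average hides, and they lie outside the shared set. The difference was also tested (edgeR, adjusted over all genes), but the choice largely fixed that outcome. Its values therefore describe these genes and add no support. Higher in H28O16.1 and lower in B0395.3 were F57H12.6, with a difference between the log2 fold changes of 3.46, the glycerol-3-phosphate dehydrogenase gene gpdh-1 (3.11, 5.6% of its exon bases covered by gadr-6 on the other strand), the infection response gene irg-6 (2.96) and the C-type lectin gene clec-258 (2.52). Lower in H28O16.1 and higher in B0395.3 were T22F3.11 (-6.06), the homeobox gene mls-2 (-4.95), the flavin monooxygenase gene fmo-2 (-4.87) and the bZIP gene zip-8 (-4.41). The fmo-2 gene had 1.88, 1.6 and 1.66 CPM in H28O16.1 and 48.0, 49.5 and 54.1 CPM in B0395.3, against 4.38, 5.59 and 9.31 CPM in L4440, and its average (0.53, adjusted p = 0.0346) was called higher although 1 of the groups was lower. For gpdh-1 the average was 0.04 (adjusted p = 0.741).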

How the results depend on the processing

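The main counts were 2646 higher and 3980 lower in the average, 557 higher and 856 lower in both groups, and 1207 in opposite directions. With library totals alone the shared counts were 1290 and 500. Under no setting was a gene of the shared set called in the other direction in both comparisons, and changes of sign without such calls were not counted. Fitting each comparison on its own libraries, with all 6 RNAi libraries as 1 group for the average, called 100 higher and 197 lower in the average. That fit counts the difference between the RNAi groups as spread and averages counts in place of log2 values, and it reversed zip-8 (0.59, against -0.68), hil-3 (0.38, against -0.79), his-24 (0.18, against -1.05) and hil-2 (0.06, against -0.60). Counting only changes over 1.5-fold left 530 and 1145 in the average, 104 and 218 shared, and 394 opposite. The rRNA share as a covariate, added after the data had been seen, gave 1173 and 2109 in the average, 142 and 329 shared, and 278 opposite; the cause was not tested. Leaving out 1 library at a time gave 2137 to 3006 higher and 3367 to 4415 lower in the average, 364 (without B0395.3 replicate 3; 370 without L4440 replicate 2) to 730 (without H28O16.1 replicate 3) higher and 609 to 1134 lower in both, and 906 to 1561 opposite. The share of shared genes that differed between the RNAi groups was 51.5% to 60.7%, against 58.1%. Of 271 genes named by rule, 236 kept direction and side of the threshold with the rRNA covariate, 264 with library totals, 265 with DESeq2 and 79 in fits on own libraries, where 188 lost significance and the 4 above reversed. No fit with a replicate block was made, since the labels number no replicates.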

Other observations

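Opposite shifts, which took 8.25% of all genes tested, were frequent in some gene families. Of 246 F-box genes, which encode substrate receptors of ubiquitin ligases, 74 went opposite ways. Those higher in both were 7 (2.85%, against 3.81% of all genes tested) and those lower 4 (1.63%, against 5.85%). Of 37 early embryonic zygotic genes 1, pes-10, was lower in both, at 0.743 CPM in H28O16.1, 12.7 CPM in B0395.3 and 15.1 CPM in L4440 on average, and 13 went opposite ways. The shared call of pes-10 was absent with library totals alone, in DESeq2 and with the rRNA share as a covariate. Of 32 histone genes 2 were higher in both, hil-5 and his-62 (6.25%, against 3.81% of all genes tested), and 10 went opposite ways.

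Galectins, which bind galactose-containing sugars, had 2 of 12 members higher in both (16.7%, against 3.81% of all genes tested) and 4 that went opposite ways. With the covariate 0 were higher in both. The lec-2 gene had 127, 121 and 166 CPM in H28O16.1 and 418, 465 and 466 CPM in B0395.3, against 102, 117 and 101 CPM in L4440, so the shared direction was mostly carried by B0395.3 (2.08, against 0.38 in H28O16.1). Of 28 genes of the intracellular pathogen response 2 were higher in both (7.14%, against 3.81% of all genes tested), pals-23 and pals-24, each at 0.33 in B0395.3. Of the 28, 1, skr-4, was lower (3.57%, against 5.85%), and with the covariate 1 was higher and 0 lower.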
